A study of Mus musculus with 6 samples.

Results

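The BCL2 family decides whether a T cell keeps its mitochondria intact or enters apoptosis, and 10 of its genes were followed here in induced T (iT) cells. The genes were chosen by name from the deposited expression table: the survival genes Bcl2, Bcl2l1 (encoding BCL-XL), Mcl1 and the copies Bcl2a1a, Bcl2a1b and Bcl2a1d (encoding A1), the BH3-only death genes Bcl2l11 (BIM) and Bbc3 (PUMA), and the effectors Bax and Bak1. All 10 had a row among the 23420 rows of the table, and all 10 were among the 10476 genes that reached at least 1 TPM (a transcript level corrected for gene length and scaled to a fixed total in each library) in at least 3 libraries and were therefore tested.

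Polyadenylated RNA was sequenced in 6 libraries, 3 of CD4 single-positive (CD4SP) and 3 of CD8 single-positive (CD8SP) iT cells, each made from 1000 sorted spleen cells. All cells of both populations descended from C57BL/6 embryonic stem cells (CD45.2) carrying an inducible Runx1-p2a-Hoxa9 cassette at Rosa26 (iR9), which were selected as clones and switched on with doxycycline in culture. Blood progenitors made from them were injected into sublethally irradiated B-NDG mice (CD45.1), which were 8 to 10 weeks old and of a strain that forms no T, B or NK cells of its own. Spleens were taken 5 weeks after transplantation and sorted on CD45.2, on CD4 or CD8 and against other blood lineages, among them CD11b-positive cells. The study describes recipients with and without doxycycline, and the labels do not say which these were. The study calls the replicates biological, but neither it nor the labels say whether they came from separate mice, so the p-values measure the spread between these libraries. No libraries of T cells from unmanipulated mice were analysed here, and neither population is a control for the other.

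The proteins of this family act on one another at the outer mitochondrial membrane. BCL2, BCL-XL, MCL1 and A1 hold the pore-forming effectors BAX and BAK in check, while BH3-only proteins such as BIM and PUMA bind the survival proteins, and can bind the effectors, and so favour release of cytochrome c. In T cells, MCL1 is needed throughout development, BCL2 is maintained in resting cells by IL-7 signalling, A1 is induced by antigen-receptor and NF-kB signalling, and BIM is the main trigger of the death of self-reactive thymocytes and of cells that lose cytokine. All of these proteins are also controlled after transcription, and only transcripts were measured here.

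The A1 genes need a remark on sequence before their levels can be read. Bcl2a1d (chr9:88723285-88731914, minus strand), Bcl2a1a (chr9:88956900-88962419, plus strand) and Bcl2a1b (chr9:89199209-89207827, plus strand) lie on mouse chromosome 9 and are protein coding (GENCODE M21, GRCm38, the assembly also called mm10). Each has a coding sequence of 519 bases. Bcl2a1a and Bcl2a1b differed at 11 coding bases (97.9% identity), Bcl2a1a and Bcl2a1d at 7 (98.7%), and Bcl2a1b and Bcl2a1d at 6 (98.8%), and identical runs reached 314 bases. Of the 12 coding positions at which the 3 copies differ, 7 fall in the first 150 bases. That stretch is shown, 5′ to 3′ on the coding strand from the start codon, because within it only a read that covers a capital letter, which marks a differing position, can tell the copies apart. The remaining differing positions lie further along the coding sequence, and untranslated sequence was not compared.
Bcl2a1a: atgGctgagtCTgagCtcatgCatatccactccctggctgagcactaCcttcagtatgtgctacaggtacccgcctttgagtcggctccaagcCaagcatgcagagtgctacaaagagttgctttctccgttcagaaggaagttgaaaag
Bcl2a1b: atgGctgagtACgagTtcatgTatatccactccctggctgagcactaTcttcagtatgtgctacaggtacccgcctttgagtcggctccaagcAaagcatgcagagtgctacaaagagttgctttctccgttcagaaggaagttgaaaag
Bcl2a1d: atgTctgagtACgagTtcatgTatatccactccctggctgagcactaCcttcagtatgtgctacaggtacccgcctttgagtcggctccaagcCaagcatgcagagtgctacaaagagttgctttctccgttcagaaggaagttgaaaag
How reads shared by the copies were divided is not given in the sources used here, so the levels of single copies are uncertain and their sum, called the Bcl2a1 sum, is the value to rely on.

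The libraries carried the lineage transcripts of their labels. Summed TPM of Cd4 and Zbtb7b were 315 to 369.6 in CD4SP and 1.71 to 3.29 in CD8SP libraries, and those of Cd8a and Cd8b1 were 24.9 to 38.9 in CD4SP and 3236 to 3562 in CD8SP libraries. CD8SP replicates 1 and 2 were closer to each other than any other pair of replicates, with a median absolute difference of 0.0750 on the log2(TPM + 1) scale over 4884 genes, against 0.170 to 0.313 for the other pairs. They were kept as separate libraries, and calls of the 10 genes that change when they are averaged are given as such. The ribosomal protein genes took 24.2% to 28.8% of TPM in the CD4SP and 32.2% to 36.0% in CD8SP libraries. TPM is scaled to a fixed total, and the median gene was 0.284 higher in CD4SP on the log2(TPM + 1) scale. Differences of the 10 genes are therefore also given relative to that median or after median-of-ratios rescaling, which sets the median gene near no difference, and the other pathway genes that pass the adjusted p after rescaling are counted. Whether the ribosomal share plays a part in any single difference was not tested.

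Both populations expressed the same survival genes in different proportions. CD8SP iT cells had about 2.06-fold more Bcl2 transcript, and CD4SP iT cells had 2.42-fold more of the Bcl2a1 sum, with Mcl1 and Bcl2l1 nearer to level. Of the death genes, Bcl2l11 was higher in CD8SP by close to 2-fold, while Bbc3, Bax and Bak1 overlapped between the populations. A gene was called when its limma adjusted p was below 0.05 and its difference exceeded 2-fold on the log2(TPM + 1) scale. By this rule 4 of the 10 genes were called, against 9.73% of all tested genes. As 3 of the 4 are near-identical copies, they amount to little more than 1 result, and with the copies joined 2 of 8 rows were called. Of the 4, 3 (the A1 copies) were higher in CD4SP, where 7.92% of all tested genes were called, and 1 (Bcl2) was higher in CD8SP, where 1.80% were called. The adjusted p alone was passed by 6 of the 10, against 20.8% of all tested genes (17.6% higher in CD4SP and 3.23% higher in CD8SP). After median-of-ratios rescaling Bcl2 alone of the 4 was still called, Bcl2l11 was called as well, and no A1 copy was. The libraries of the populations did not overlap for 5 genes that were higher in CD4SP (36.6% of all tested genes) and 2 that were higher in CD8SP (6.61%). Of those 5, 3 were the A1 copies, so this count too holds fewer separate results. The median difference of the 10 genes, with the copies counted singly, was 0.182, beside 0.284 for all tested genes. Of the 10 differences 5 were positive, 3 of them those of the copies, and 5 were negative. With the copies joined the median would be negative, so its sign depends on how they are counted.

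**Figure D1:**
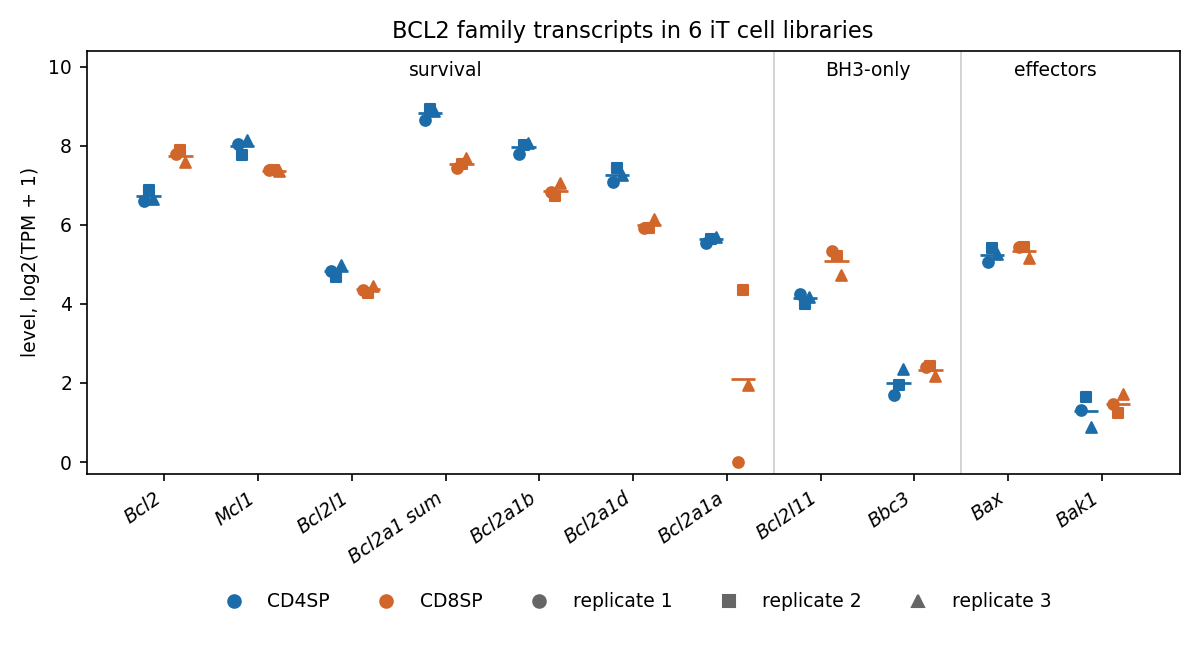
Level of each BCL2 family gene in each library, as log2(TPM + 1) on the vertical axis, with blue for CD4SP, orange for CD8SP, a marker shape for each replicate and a bar for the mean of 3 libraries. Bcl2 and Bcl2l11 sit higher in all CD8SP libraries, Mcl1, Bcl2l1 and the Bcl2a1 genes sit higher in all CD4SP libraries, and the remaining genes overlap, while the CD8SP libraries are spread widely for Bcl2a1a.

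Bcl2, the founding survival gene of the family, is encoded at chr1:106538178-106714274 on the minus strand. Its level was 96.3, 117 and 99.7 TPM in the CD4SP replicates 1 to 3 and 218, 236 and 191 TPM in the CD8SP replicates 1 to 3. Every CD8SP library was above every CD4SP library, and the gap between the populations exceeded the spread within either. The means were 104 ± 11.2 TPM in CD4SP libraries and 215 ± 22.9 TPM in CD8SP (SD, n = 3), and the log2 fold change, which is CD4SP minus CD8SP throughout, was -1.03 (SE 0.134, 95% interval -1.34 to -0.73, limma adjusted p 0.00153). Relative to the median gene the difference was -1.32, and after median-of-ratios rescaling it was -1.34 (adjusted p 0.00121). The adjusted p of Bcl2 stayed between 0.000113 and 0.0105 in all 17 alternatives. Its value was so close to the 2-fold limit that it dropped below it without CD4SP replicate 1 (-0.98), without CD8SP replicate 2 (-0.96) or with CD8SP replicates 1 and 2 averaged (-0.99). In a bulk library, fewer cells that express a gene and less transcript per cell cannot be told apart, which holds for this and every difference that follows. D630008O14Rik, annotated on the opposite strand, overlaps Bcl2 exons, and whether reads were assigned by strand is not stated. Exons of Bcl2a1b and Bax are overlapped on the same strand by Gm29094 and Gm45808, which strand would not resolve.

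The Bcl2a1 sum went the other way. A1 is the family's short-lived, inducible survival protein. The sum was 401, 483 and 468 TPM in the CD4SP replicates 1 to 3 and 172, 183 and 204 TPM in the CD8SP replicates 1 to 3. The lowest CD4SP library was close to 2-fold above the highest CD8SP library, so there was no overlap. The means were 451 ± 43.4 TPM in CD4SP libraries and 186.5 ± 16.4 TPM in CD8SP (SD, n = 3), and the log2 fold change was 1.27 (SE 0.122, 95% interval 0.99 to 1.55, limma adjusted p 0.000344, in a fit with the copies joined into 1 row in which 9.71% of 10474 genes were called). With median-of-ratios rescaling the difference of the Bcl2a1 sum was 0.96 (adjusted p 0.00596), just under 2-fold, and it stayed above 2-fold in the other 16 alternatives.

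Bcl2a1b and Bcl2a1d carried most of that sum. Bcl2a1b was at 220.4, 260.1 and 266 TPM in the CD4SP replicates 1 to 3 and at 113, 104.5 and 131 TPM in the CD8SP replicates 1 to 3. Its log2 fold change was 1.09 (SE 0.134, 95% interval 0.79 to 1.40, limma adjusted p 0.00120). Bcl2a1d was at 135, 173 and 151 TPM in the CD4SP and at 59.3, 59.6 and 70.2 TPM in the CD8SP replicates 1 to 3, with a log2 fold change of 1.27 (SE 0.140, 95% interval 0.95 to 1.59, limma adjusted p 0.000718). For both genes every CD4SP library exceeded every CD8SP library. Bcl2a1d made up 32.3% to 35.9% of the Bcl2a1 sum over all 6 libraries, and this share overlapped between the populations. Bcl2a1b was under 2-fold with median-of-ratios rescaling (0.79), quantile normalization (0.88) or without the ribosomal protein genes (0.94), and Bcl2a1d was under 2-fold with median-of-ratios rescaling (0.96). Their adjusted p remained under 0.05 in those alternatives.

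Bcl2a1a was the least steady of the 10 genes. It was at 45.7, 49.2 and 50.8 TPM in the CD4SP replicates 1 to 3, and in CD8SP it was listed at 0 in replicate 1, at 19.3 TPM in replicate 2 and at 2.89 TPM in replicate 3. The CD4SP libraries lay close together and above all CD8SP libraries, which were far apart, although CD8SP replicates 1 and 2 resembled each other in other genes. The log2 fold change was 3.53 with a wide 95% interval of 1.52 to 5.54 (SE 0.879, limma adjusted p 0.0254), and the adjusted p was above 0.05 in 8 of 17 alternatives, reaching 0.0833 without CD8SP replicate 3. It also exceeded 0.05 without CD4SP replicate 1 (0.0641), without CD4SP replicate 3 (0.0801) and after median-of-ratios rescaling (3.28, adjusted p 0.0505). With 1 library left out, the difference ranged from 2.48 without CD8SP replicate 1 (limma adjusted p 0.0226) to 4.65 without CD8SP replicate 2 (0.000797). With CD8SP replicates 1 and 2 averaged it was 2.94 (limma adjusted p 0.0018). Bcl2a1a made up 11.4%, 10.2% and 10.8% of the Bcl2a1 sum in CD4SP replicates 1 to 3, and 0%, 10.5% and 1.42% in CD8SP replicates 1 to 3. As listed, the share in CD8SP replicate 2 was thus near those of the CD4SP libraries, though how shared reads were divided between the copies is unknown. An exact 0 in a TPM table can be a failed estimate, and the fitted difference of Bcl2a1a moved with the pseudocount, to 4.76 at 0.1, so it is no measure of a fold.

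Part of the region before the start of the A1 genes is nearly identical too. The stretch below, from RefSeq on GRCm38.p6 and read in each gene's direction, is the part of their promoter windows that could be laid side by side. It has 103 bases, and the copies differ at 1 position, given as a capital. The rest of the upstream region was not compared.
Bcl2a1a, chr9:88956714-88956816, plus strand: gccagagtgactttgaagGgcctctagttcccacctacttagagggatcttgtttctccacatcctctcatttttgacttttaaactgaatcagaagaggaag
Bcl2a1b, chr9:89199023-89199125, plus strand: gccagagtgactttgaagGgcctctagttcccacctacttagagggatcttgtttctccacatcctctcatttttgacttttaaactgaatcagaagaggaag
Bcl2a1d, chr9:88731948-88732050, minus strand: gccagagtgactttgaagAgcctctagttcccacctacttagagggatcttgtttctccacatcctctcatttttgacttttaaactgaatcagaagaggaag
Sequence in this stretch therefore gave no way to tell the copies apart beyond that letter.

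Motif letters were searched on both strands of RefSeq promoter windows running from 250 bases before to 50 after each start, of which the 10 genes had 15. The AP-1 letters TGANTCA occurred in the windows of Bcl2a1a, Bcl2a1b and Bcl2a1d, at positions -120, -164 and -114 from the start, and in 7.81% of all 32851 windows. As the copies are near duplicates, these matches are hardly 3 separate ones. The FOXO letters TGTTTAC occurred in 1 window each of Bcl2l11 and Bbc3 and in 3.65% of all windows. The NF-kB consensus matched 1 window each of Bcl2l1 and Bbc3 and 4.505% of all windows, while the STAT5 letters TTCNNNGAA, present in 8.30% of all windows, were in none of the 15. A match describes letters only, and no binding was measured in these cells.

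Mcl1, at chr3:95658788-95663176 on the plus strand, encodes the survival protein on which most T cells depend. It was at 263, 218 and 281 TPM in the CD4SP and at 166, 164.7 and 163 TPM in the CD8SP replicates 1 to 3. The populations did not overlap, and the CD8SP libraries lay close together, with a mean of 164.6 ± 1.46 TPM against 254 ± 32.7 TPM in CD4SP (SD, n = 3). The log2 fold change of 0.62 (SE 0.125, 95% interval 0.33 to 0.90, limma adjusted p 0.0111) passed the adjusted p and not the 2-fold limit. Relative to the median gene it was 0.33, and after median-of-ratios rescaling it was 0.31 (adjusted p 0.0558).

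Bcl2l1, at chr2:152780668-152831728 on the minus strand, is best known in T cells for the survival of CD4 CD8 double-positive thymocytes. It was at 27.2, 24.6 and 30.5 TPM in the CD4SP and at 19.35, 18.4 and 21.0 TPM in the CD8SP replicates 1 to 3. The CD4SP libraries were all above the CD8SP libraries. Its log2 fold change came to 0.46 (SE 0.158, 95% interval 0.10 to 0.82), with a limma adjusted p of 0.0708, and 0.18 relative to the median gene. The adjusted p of Bcl2l1 fell under 0.05 without CD4SP replicate 2 (0.53, adjusted p 0.0298) and with library weights (0.54, adjusted p 0.0118).

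Of the death genes and effectors among the 10, Bcl2l11 differed most. It encodes BIM, which binds all of the survival proteins above, and lies at chr2:128126038-128162547 on the plus strand. Its level was 17.97, 14.97 and 17.1 TPM in the CD4SP and 39.2, 36.2 and 25.5 TPM in the CD8SP replicates 1 to 3. No CD8SP library reached down to the CD4SP range, though CD8SP replicate 3 was well below the other two. The means were 16.7 ± 1.55 TPM and 33.6 ± 7.20 TPM (SD, n = 3), and the log2 fold change of -0.95 (SE 0.197, 95% interval -1.40 to -0.50, limma adjusted p 0.0121) fell just short of the 2-fold limit. Relative to the median gene it was -1.23, and it passed both criteria with median-of-ratios rescaling (-1.24), quantile normalization (-1.27), library weights (-1.07), without the ribosomal protein genes (-1.12), without CD4SP replicate 1 (-1.002) or without CD8SP replicate 3 (-1.13). Bcl2l11 missed the adjusted p without CD8SP replicate 1 (adjusted p 0.0626), without CD8SP replicate 2 (0.0571) and with those libraries averaged (0.0572).

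Bbc3, at chr7:16308393-16318205 on the plus strand, encodes the p53-inducible BH3-only protein PUMA. It was low, at 2.21, 2.84 and 4.11 TPM in the CD4SP and 4.28, 4.402 and 3.48 TPM in the CD8SP replicates 1 to 3. CD4SP replicate 3 lay within the CD8SP range. The log2 fold change was -0.34 (95% interval -0.93 to 0.25, limma adjusted p 0.370), and -0.57 after median-of-ratios rescaling (adjusted p 0.153).

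The effectors showed no difference that passed the test. Bax, at chr7:45461697-45466898 on the minus strand, was at 32.4, 41.5 and 37.0 TPM in the CD4SP and 42.0, 42.2 and 34.5 TPM in the CD8SP replicates 1 to 3. The populations overlapped, and the log2 fold change was -0.10 (95% interval -0.46 to 0.27, limma adjusted p 0.686), so the interval leaves out a 2-fold difference in either direction. After median-of-ratios rescaling Bax was at -0.40 (adjusted p 0.151). Bak1, at chr17:27019810-27029009 on the minus strand, was at 1.51, 2.15 and 0.857 TPM in the CD4SP and 1.75, 1.35 and 2.32 TPM in the CD8SP replicates 1 to 3. Its log2 fold change was -0.18 (95% interval -0.88 to 0.51, limma adjusted p 0.690), and it was 0.02 without CD4SP replicate 3 and -0.36 after median-of-ratios rescaling. Bax exceeded Bak1 by 14.9-fold to 43.2-fold in TPM within a library, and these ratios overlapped between the populations. Bak1 shares exonic sequence on opposite strands with Ggnbp1, which did not exceed 3.796 TPM in any library.

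**Figure D2:**
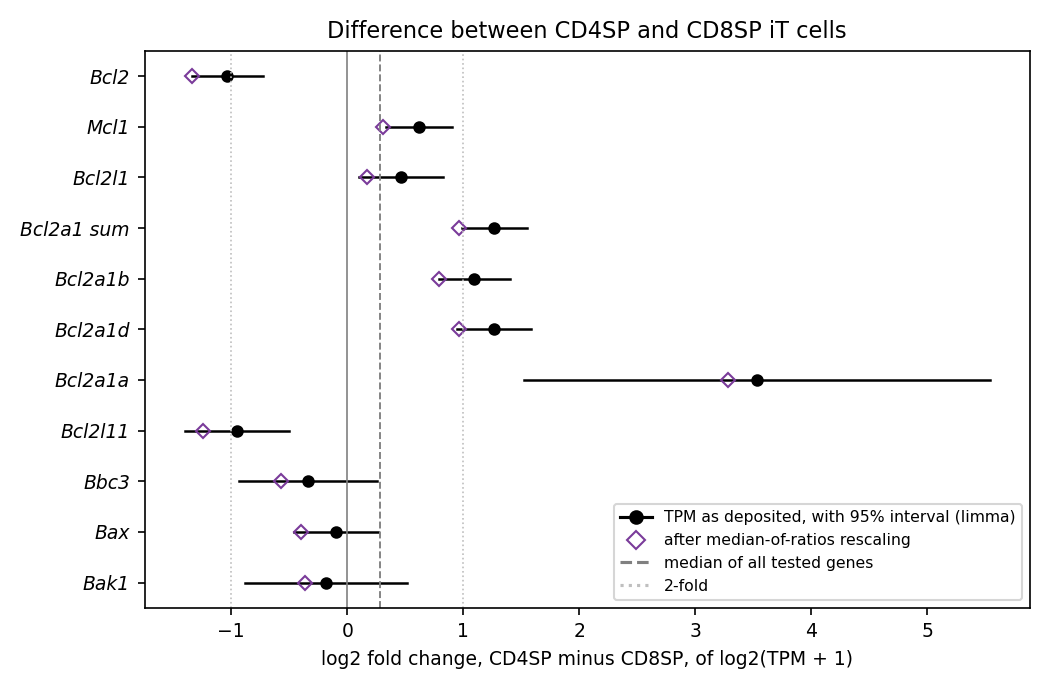
Log2 fold change of each gene, CD4SP minus CD8SP, on the log2(TPM + 1) scale, as black points with 95% intervals from limma, and after median-of-ratios rescaling as open diamonds. The dashed line is the median of all tested genes (0.284) and the dotted lines mark 2-fold. Bcl2 and Bcl2l11 lie to the left and move further left on rescaling, the Bcl2a1 genes lie to the right, and the intervals of Bbc3, Bax and Bak1 include 0.

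TPM are corrected for length, and on that basis levels of different genes were ordered within a population. Length correction does not cover any unequal amplification of cDNA between genes, which was not tested. That limits the order and the size of every ratio between different genes given here, and the levels of single A1 copies remain uncertain. In CD4SP iT cells the order of mean TPM was Mcl1, Bcl2a1b, Bcl2a1d, Bcl2, Bcl2a1a, Bax, Bcl2l1, Bcl2l11, Bbc3 and Bak1. Only Mcl1 and Bcl2a1b among neighbours in that order had overlapping libraries. In CD8SP iT cells the order was Bcl2, Mcl1, Bcl2a1b, Bcl2a1d, Bax, Bcl2l11, Bcl2l1, Bcl2a1a, Bbc3 and Bak1, and here the libraries overlapped between Bax and Bcl2l11, between Bcl2l1 and Bcl2a1a, and between Bcl2a1a and Bbc3. Bcl2 thus stood in the first place in CD8SP and in the fourth in CD4SP. The Bcl2a1 sum was above every single gene in CD4SP, and in CD8SP it overlapped with Bcl2. With the copies listed singly, Bcl2 ranked between 531 and 1589 by TPM among all genes over the 6 libraries and Mcl1 between 511 and 769.

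Ratios between genes of a library do not depend on how that library was scaled, and they are given as descriptions without a test. The TPM of the survival genes summed to 788, 842 and 879.6 in CD4SP and to 576, 603 and 579 in CD8SP replicates 1 to 3. Bcl2 made up 12.2%, 13.9% and 11.3% of that sum in CD4SP and 37.9%, 39.2% and 32.9% in CD8SP replicates 1 to 3. The Bcl2a1 genes together made up 50.9%, 57.3% and 53.2% in CD4SP and 29.9%, 30.4% and 35.3% in CD8SP. These shares did not overlap, whereas Mcl1 made up 25.9% to 33.4% in CD4SP and 27.3% to 28.8% in CD8SP and overlapped, as did the smaller share of Bcl2l1, at 2.92% to 3.63% over all libraries. The shares that differed were thus those of Bcl2 and of the A1 copies together. Shares of a sum are tied to one another, and the sum itself was higher in every CD4SP library, as was Mcl1 in TPM.

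Bcl2 and Mcl1 changed places. The ratio of Bcl2 to Mcl1 was 0.366, 0.538 and 0.354 in CD4SP and 1.31, 1.43 and 1.17 in CD8SP replicates 1 to 3, below 1 in all CD4SP and above 1 in all CD8SP libraries. The ratio of the Bcl2a1 sum to Bcl2 was 4.17, 4.12 and 4.696 in CD4SP and 0.787, 0.777 and 1.07 in CD8SP. It was 4.93-fold higher on average in CD4SP, the widest separation of any ratio computed among these genes.

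Set against BIM, the survival genes differed from each other. Mcl1 exceeded Bcl2l11 by 14.7, 14.55 and 16.4-fold in CD4SP and by 4.24, 4.55 and 6.40-fold in CD8SP replicates 1 to 3, with no overlap. Bcl2 exceeded Bcl2l11 by 5.36, 7.83 and 5.82-fold in CD4SP and by 5.57, 6.52 and 7.48-fold in CD8SP, and these ranges overlapped almost entirely. Bcl2 and Bcl2l11 were each about 2-fold higher in CD8SP iT cells while their ratio overlapped, at 6.34 ± 1.32 and 6.525 ± 0.955 (SD, n = 3). The survival sum over Bcl2l11 was 43.9 to 56.3 in CD4SP and 14.7 to 22.7 in CD8SP libraries. Over the effectors Bax and Bak1 it was 19.3 to 23.3 in CD4SP and 13.15 to 15.7 in CD8SP libraries. The ratio of Bcl2 to Bax alone was the reverse, at 2.69 to 2.98 in CD4SP and 5.198 to 5.598 in CD8SP libraries.

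**Figure D3:**
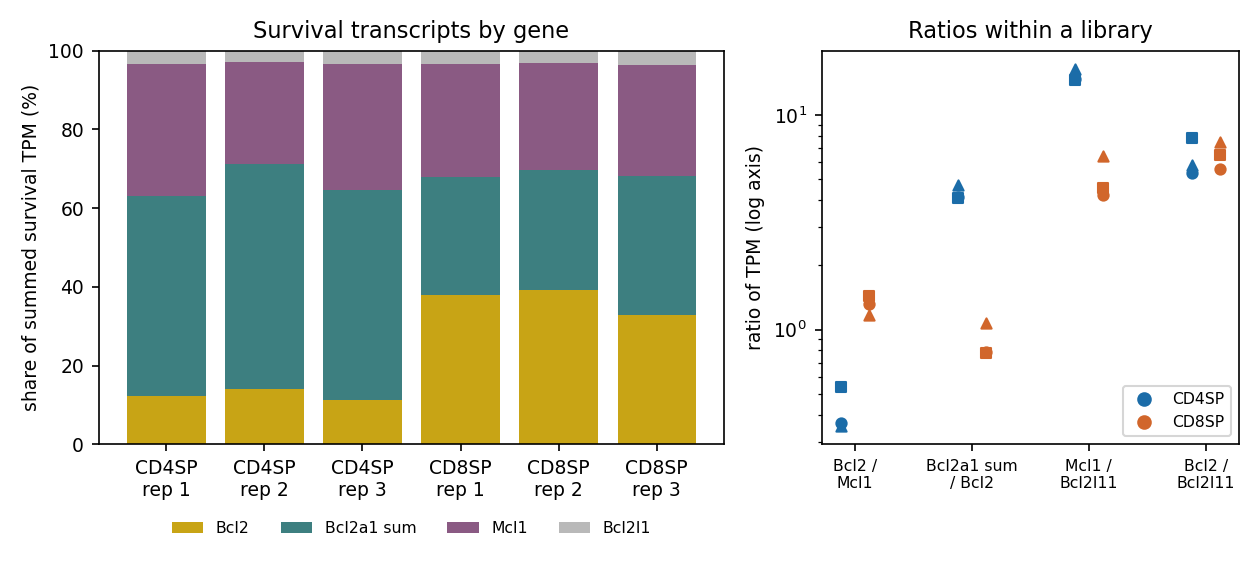
Left, share in percent of each survival gene in the summed survival TPM of each library, with the 3 A1 copies joined. Right, ratios of TPM between genes within a library on a log axis, with blue for CD4SP, orange for CD8SP, and circles, squares and triangles for replicates 1, 2 and 3. The share of Bcl2 is 11.3% to 13.9% in CD4SP and 32.9% to 39.2% in CD8SP, and of the ratios drawn only Bcl2 over Bcl2l11 overlaps.

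Genes of like pattern were sought among 6734 tested genes with a mean of at least 10 TPM (6732 for the Bcl2a1 sum). Those whose pattern over the 6 libraries was most like that of each called gene were listed by Pearson r of log2(TPM + 1). For Bcl2 these were Rps3 (r = 0.997), a protein of the small ribosomal subunit, Eef1b2 (0.994), a translation elongation factor, and Mx1 (0.991), an interferon-inducible gene. For the Bcl2a1 sum they were Mier1, Ing5 and Usp33 (0.998 to 0.9996), for Bcl2a1b Med22, Haus3 and Tff1 (0.996 to 0.998), and for Bcl2a1d Klhl9, Mier1 and Fkbp1a (0.998). For Bcl2a1a they were Ecsit, Itsn2 and 2210404J11Rik (0.968 to 0.978). With 3 libraries on each side, such coefficients include the difference between the populations itself, and the points share their libraries and scaling.

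The other genes of the pathway were taken from lists of 54 genes in 8 groups. All 54 had a row, Bcl2l10 and Hrk were listed at 0 in every library, and 48 were tested. Of these, 7 were called, all higher in CD4SP, against 7.92% of all tested genes in that direction. For 2 of the 7, Bok and Bcl2l15, all CD8SP libraries were under 1 TPM, so they passed the filter only through the CD4SP libraries and could differ in no other direction, which leaves 5. The adjusted p alone was passed by 16, all higher in CD4SP, where 17.6% of all tested genes passed it, Bok and Bcl2l15 included in the count, and the median difference of the 48 was 0.386, beside 0.284 for all tested genes. None was called higher in CD8SP, where 1.80% of all tested genes were called, so a count of 0 among 48 is no result about these genes. After median-of-ratios rescaling, the adjusted p was passed by 9 of them higher in CD4SP, again with Bok and Bcl2l15 among them (8.45% of all tested genes), and by 1, Il2rb, higher in CD8SP (-0.49, adjusted p 0.00865, against 7.45%).

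**Figure D4:**
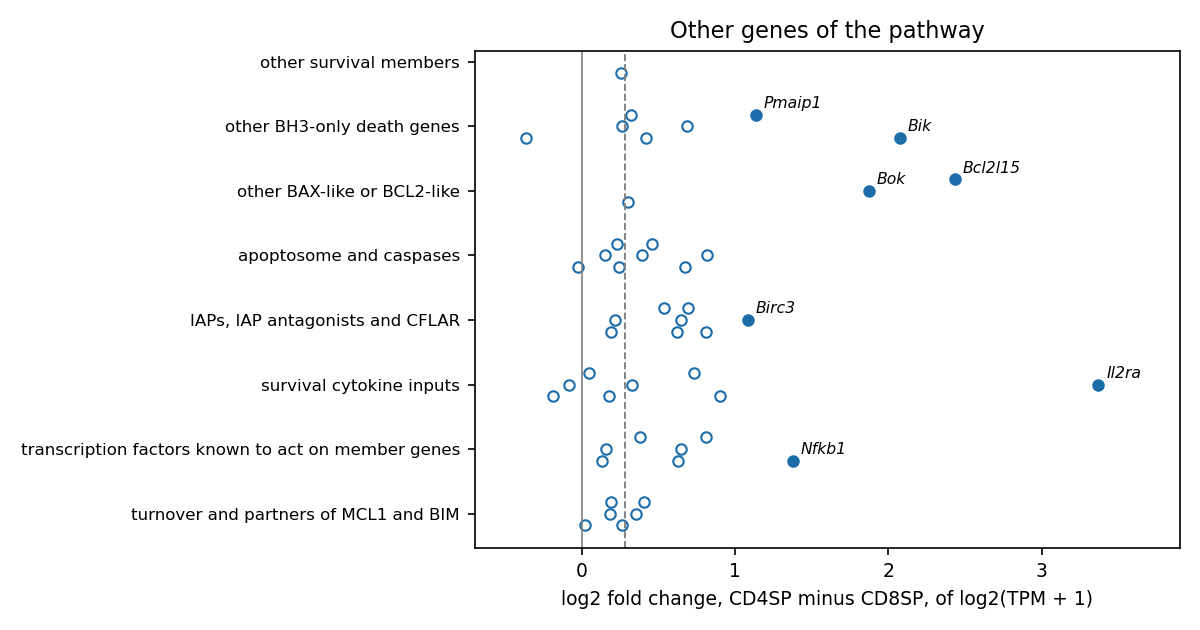
Log2 fold change, CD4SP minus CD8SP, on the log2(TPM + 1) scale, for 48 tested genes of 8 pathway groups, 1 point a gene, filled where called. The dashed line is the median of all tested genes. The 7 called genes all lie to the right, and the other 41 lie around the dashed line, between -0.36 and 0.90. Bok is listed at 0 in all CD8SP libraries, so its place depends on the pseudocount.

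Of 10 other BH3-only genes, 7 were tested and 2 were called (7.92% of all tested genes in that direction), both higher in CD4SP and so opposite in direction to Bcl2l11. Pmaip1, which encodes the MCL1- and A1-binding protein NOXA, was at 24.4, 32.8 and 28.4 TPM in the CD4SP and 12.1, 10.3 and 15.1 TPM in the CD8SP replicates 1 to 3, with no overlap (log2 fold change 1.13, limma adjusted p 0.00600). Bik, encoding a BH3-only protein of the endoplasmic reticulum, was at 20.8, 9.11 and 8.35 TPM in the CD4SP and 1.70, 2.095 and 2.28 TPM in CD8SP (2.08, limma adjusted p 0.00441). Pmaip1 was 0.84 with median-of-ratios rescaling and no longer called, nor was it with quantile normalization or without the ribosomal protein genes. Bnip3l, a mitophagy receptor counted with this group, was at 56.6 to 91.4 TPM and did not pass (0.42, limma adjusted p 0.102).

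Of the further BAX-like or BCL2-like genes, 3 of 4 were tested and 2 were called (7.92% of all tested genes higher in CD4SP), both at low levels and both measured at 1 TPM or more in the CD4SP libraries alone, so that the filter fixed their direction. Bcl2l15 was at 6.01, 7.18 and 7.72 TPM in the CD4SP and 0.736, 0.8215 and 0 TPM in the CD8SP replicates 1 to 3 (log2 fold change 2.43, limma adjusted p 0.00130). Bok, encoding a BAX-like effector, was at 6.86, 1.71 and 1.29 TPM in the CD4SP and listed at 0 in all CD8SP libraries, with a limma adjusted p of 0.0250. The adjusted p of Bok passed above 0.05 when any CD8SP library was left out or those of replicates 1 and 2 were averaged (up to 0.0712), and with quantile normalization (0.0517). CD4SP replicate 1 was well above the other CD4SP libraries for both Bok and Bik. The fourth A1 gene, Bcl2a1c, was at or under 1.38 TPM in all libraries and was not tested, and of Bcl2l10 and Bcl2l2, the other survival genes, the latter alone was tested and did not pass (0.25, limma adjusted p 0.656).

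Downstream of the mitochondria, none of the 8 genes of the apoptosome and caspases was called, against 9.73% of all tested genes. That count is near the share of all genes and is no result about this group. The most abundant was Casp8, the initiator caspase of death receptors, at 126, 125 and 149 TPM in the CD4SP and 99.2, 101 and 89.0 TPM in the CD8SP replicates 1 to 3 (log2 fold change 0.46, limma adjusted p 0.0362). Cycs, encoding cytochrome c, was at 54.2 to 70.2 TPM (0.24, limma adjusted p 0.185) and Casp2 at 41.9 to 57.4 TPM (0.23, limma adjusted p 0.273). Another 1 of the 8 passed the adjusted p alone, against 17.6% of all tested genes higher in CD4SP, and after median-of-ratios rescaling none did (Casp8 0.16, adjusted p 0.356). Casp8 also missed it with CD8SP replicates 1 and 2 averaged (0.102), and passed it in only 6 of the 17 alternatives.

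Of the 8 inhibitor-of-apoptosis genes, their antagonists and CFLAR and FADD, 1 was called (7.92% of all tested genes in that direction) and 4 passed the adjusted p (17.6%), all higher in CD4SP, and 2 passed it after median-of-ratios rescaling, Birc2 and Birc3. Birc3 (cIAP2), an NF-kB target, was at 67.5, 46.1 and 61.0 TPM in the CD4SP and 25.1, 28.5 and 26.2 TPM in the CD8SP replicates 1 to 3 (log2 fold change 1.08, limma adjusted p 0.00396). It was 0.79 with median-of-ratios rescaling and 0.97 without CD4SP replicate 1, in both cases under 2-fold, as it also was with quantile normalization and without the ribosomal protein genes. Birc2 (cIAP1; 0.81, limma adjusted p 0.0180) and Htra2 (0.69, adjusted p 0.0136), a mitochondrial protease that antagonizes such inhibitors, also passed the adjusted p, which Htra2 lost on rescaling (0.40, adjusted p 0.0865). With CD8SP replicates 1 and 2 averaged neither passed it (Birc2 0.0525 and Htra2 0.0625), and Birc2 missed it also without CD4SP replicate 1 (0.0600), CD4SP replicate 3 (0.0686) or any 1 CD8SP library. Birc5 (survivin), which also serves in cell division, was at 139 to 178 TPM (0.19, limma adjusted p 0.282), and Diablo at 46.0 to 66.5 TPM (0.22, adjusted p 0.381).

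Of the cytokine inputs 1 of 8 was called, against 7.92% of all tested genes higher in CD4SP. Il2ra (CD25), the high-affinity chain of the IL-2 receptor, was at 95.7, 92.0 and 82.1 TPM in the CD4SP and 8.77, 8.46 and 6.31 TPM in the CD8SP replicates 1 to 3 (log2 fold change 3.37, limma adjusted p 1.28e-05). Il7r, the receptor chain for IL-7, was abundant in both, at 392, 338 and 434 TPM in the CD4SP and 316, 342 and 271 TPM in the CD8SP replicates 1 to 3, with overlap (0.32, limma adjusted p 0.124, and 0.02 with adjusted p 0.928 after median-of-ratios rescaling). Il2rg (1041 to 1331 TPM, 0.18, limma adjusted p 0.288), Il2rb (87.2 to 117 TPM, -0.19, adjusted p 0.304), Il15ra (22.2 to 39.2 TPM, 0.04, adjusted p 0.905) and Il4ra (33.4 to 37.9 TPM, -0.08, adjusted p 0.680) did not pass, though Il2rb did after rescaling, as given above. Of the 8 genes of this group, 3 passed the adjusted p, all higher in CD4SP, where 17.6% of all tested genes passed it (3.23% in CD8SP). Beside Il2ra these were the signal transducers Stat5b (0.90, limma adjusted p 0.00671) and Stat5a (0.73, adjusted p 0.0246). Stat5b was at 29.6 to 34.1 TPM in the CD4SP against 15.0 to 18.4 TPM in the CD8SP libraries. Stat5a passed the adjusted p in only 8 of the 17 alternatives. It did not pass after median-of-ratios rescaling (0.44, adjusted p 0.0689) or with CD8SP replicates 1 and 2 averaged (0.0826), among others.

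Among 8 transcription factors known to act on genes of the family, 7 were tested and 1 was called, against 7.92% of all tested genes higher in CD4SP, so the count is near that share. Nfkb1, encoding the NF-kB subunit p105/p50, was at 125, 81.4 and 118 TPM in the CD4SP and 43.3, 41.7 and 36.4 TPM in the CD8SP replicates 1 to 3 (log2 fold change 1.38, limma adjusted p 0.00174). It was still called after median-of-ratios rescaling (1.07). Nfkb2 (0.63, limma adjusted p 0.0214) and Foxo1 (0.65, adjusted p 0.00681), which can act on Bcl2l11, passed the adjusted p alone, both higher in CD4SP, and neither passed it after median-of-ratios rescaling (Nfkb2 0.33, adjusted p 0.0725, and Foxo1 0.34, adjusted p 0.0535). Nfkb2 also missed it with CD8SP replicates 1 and 2 averaged (0.0758), and passed it in only 8 of the 17 alternatives. Rela, at 89.3 to 145 TPM (0.16, limma adjusted p 0.541), and Ddit3, at 61.7 to 80.1 TPM (0.13, adjusted p 0.502), did not pass.

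None of the 6 genes of the turnover and the partners of MCL1 and BIM passed the adjusted p, against 20.8% of all tested genes. With so few genes, that count is no result about the group. Dynll1, a dynein light chain that can hold BIM, was at 204, 273 and 229 TPM in the CD4SP and 187, 184 and 178.5 TPM in the CD8SP replicates 1 to 3 (log2 fold change 0.35, limma adjusted p 0.0897). Vdac2, an outer-membrane channel that binds BAK, was at 225 to 286 TPM over all libraries (0.02, limma adjusted p 0.917).

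Some transcripts from marker lists of other cell types differed between the populations, though a listed transcript need not be limited to its cell type. Myeloid cells express A1 at high levels. Of 8 myeloid markers 7 had a row, 2 of them (S100a8 and S100a9) were at 0 throughout, and the sum of the 7 was 17.1 to 34.2 TPM in the CD4SP and 5.28 to 13.9 TPM in CD8SP libraries, most of it Lyz2. The 6 dendritic markers summed to 46.3 to 68.6 TPM in the CD4SP and 31.9 to 42.0 TPM in CD8SP libraries. The dendritic list was divided: H2-Aa (25.1 to 38.7 TPM in CD4SP against 3.88 to 13.04 TPM in CD8SP libraries) and Cd74 made up most of its sum in CD4SP, while Itgax, the largest single part in every CD8SP library, was at 0 to 0.946 TPM in CD4SP against 17.2 to 18.1 TPM in CD8SP libraries. In the myeloid list Fcer1g had its higher mean in CD8SP libraries without passing the test (-0.59, limma adjusted p 0.470). Both sums move in the direction of the Bcl2a1 sum, and their part in it was not tested. The 6 NK markers summed to 1817 to 2026 TPM in the CD4SP and 6522 to 7011 TPM in CD8SP libraries, nearly all of it Nkg7. Eomes (8.19 to 10.6 TPM in CD4SP against 49.9 to 55.4 TPM in CD8SP libraries) and Prf1 (2.28 to 9.21 against 51.7 to 62.3 TPM) moved the same way, as did Klrb1c (0.682 to 1.82 against 5.22 to 9.14 TPM, log2 fold change -1.86, limma adjusted p 0.00426), while Ncr1 and Klra8 were at 0. With Nkg7 so large a part of it and 2 of the 6 markers at 0 in all libraries, this sum is no measure of NK cells. It moves in the direction of Bcl2 and Bcl2l11, and its part in them was not tested.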

How the data were processed

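The authors amplified cDNA of sorted cells with a whole-transcriptome kit, built libraries with a transposase kit, aligned reads to mm10 with HISAT2 and estimated levels with StringTie. They deposited TPM values, 1 column for each of the 6 libraries. Removal of duplicates, use of strand and the annotation are not given in the sources used here. TPM keep no depth, so library depth is unknown and no counting interval was given. The TPM of each library summed to 997896 to 998100.

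Genes reaching 1 TPM or more in 3 or more libraries were fitted as log2(TPM + 1), which understates changes of low genes, with limma 3.58.1 in R 4.3.3 (lmFit, eBayes with trend) and population as the only term. P-values were adjusted by Benjamini-Hochberg over all tested genes. The 2-fold and 0.05 limits follow the study. Count models do not suit TPM. The fitting code was tested on simulated data. The genes and lists were chosen with earlier results of these data known. Named genes were the 10 genes, the Bcl2a1 sum, pathway genes called or at 20 TPM or more in all libraries, and the 3 genes most like each called gene. Bcl2l10, Hrk, Bcl2l2, Bcl2a1c, Stat5a, Stat5b and the marker genes were named outside that rule, after their values were seen. Alternatives were a pseudocount of 0.1, no filter or one of 5 TPM, median-of-ratios, quantile normalization, removal of ribosomal protein genes, no trend, library weights, a replicate block, no fold limit, each library left out, and CD8SP replicates 1 and 2 averaged. Some marker results are not reported here. Figures were drawn with matplotlib 3.10.9.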

Additional observations from a re-analysis of the deposited data

How the results depend on the processing

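Of 168 values (10 genes and their alternatives), 144 kept direction and call, 15 lost the call, 8 gained it and 1 changed sign. The last was Bak1, at 0.016 without CD4SP replicate 3 (range -0.365 to 0.016 with 1 library left out). With median-of-ratios rescaling 2 of the 10 genes were called in place of 4 (3 to 4 with 1 library left out), Bcl2 and Bcl2l11, so that 1 of the 4 remained and no A1 copy did, and the Bcl2a1 sum moved to 0.96 (1.21 to 1.35 with 1 library left out). Scaling also moved the balance of all calls, from 830 higher in CD4SP of 1019 to 489 of 788 with median-of-ratios and 444 of 777 with quantile normalization. The pathway lists gave 7 calls, 4 with quantile normalization, 16 with the adjusted p alone and 4 to 6 with 1 library left out. The 4 calls came without CD4SP replicate 1, which left Bok and Bcl2l15 untested and Birc3 under 2-fold. All tested genes gave 1019 calls, 2183 with the adjusted p alone and 752 to 1042 with 1 library left out. A filter of 5 TPM left Bak1 and Bbc3 untested.

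For same-numbered libraries, the correlations of their deviations from the population means were -0.02 to 0.09, and 3 of 6 libraries correlated best with their own number. Deviations from a mean of 3 libraries cancel out within a population, so this check cannot decide whether the numbers are pairs. With the replicate number as a block, 4 of the 10 genes, 7 pathway genes and 997 of all genes were called, and the Bcl2a1 sum kept its difference of 1.27 (limma adjusted p 0.00104). The unknown depth limits what can be said of Bak1, Bbc3 and Bcl2a1a at their low values.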
